A study of Mus musculus with 6 samples.

Results

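The Slc39 family, also called ZIP proteins, moves zinc into the cytosol, either from outside the cell or out of organelles such as the endoplasmic reticulum and the Golgi. The Slc30 family moves zinc the other way, and metallothioneins bind it in the cytosol. The factor Mtf1 senses cytosolic zinc and drives metallothionein genes and the exporter gene Slc30a1 through metal response elements in their promoters. In the nose, zinc deficiency is known for its association with loss of smell.

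The genes described here are 10 Slc39 genes, taken by name from the deposited gene table. They are 10 of the 14 Slc39 genes among the 41709 genes listed. By the main site of their proteins, 7 were grouped as plasma membrane transporters (Slc39a1, Slc39a3, Slc39a4, Slc39a6, Slc39a8, Slc39a10 and Slc39a14) and 3 as organelle transporters (Slc39a7, Slc39a9 and Slc39a11). Some members are known at more than 1 site, so the grouping is by textbook knowledge and not by a measurement in these samples.

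The series asks how a diet lacking zinc affects the olfactory mucosa of mice. The zinc-deficient mice were fed a diet low in zinc, starting at 4 weeks of age and ending at 8 weeks. The control mice were fed a zinc-sufficient control diet over the same weeks, and no strain, sex or genotype is given in the labels. Each of the 6 libraries was made from 500 ng of total RNA of the rear nasal septum, with mucosa and bone in the same piece, after removal of ribosomal RNA. Each diet had 3 libraries, numbered 4, 5 and 6. Whether each library is a separate mouse is not stated in the labels, so p-values measure only the spread between these libraries, which may be technical.

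The libraries held 14397826, 16163294 and 18727863 counts in the zinc-deficient group, against 13059798, 11731999 and 16748740 counts in the control group. CPM are counts scaled by library size, and 3 counts, taken as the floor of detection, were worth 0.160 to 0.256 CPM; this floor covers counting error only. Every member stood far above that floor, with at least 172 counts in each library. Together the 10 members took 461, 481 and 505 CPM of the column total in zinc-deficient libraries, against 494, 486 and 523 CPM in control libraries. These ranges overlapped.

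The tissue carried many cell types, whose marker sums varied between libraries. The 12 mature olfactory neuron markers summed to between 9685 and 11384 CPM in zinc-deficient libraries, against between 7099 and 8507 CPM in control libraries, and 12 of 12 had a positive log2 fold change (Omp 0.53 ± 0.21 and Gfy 0.52 ± 0.15, SE). The 10 osteoblast markers summed to between 4537 and 9528 CPM in zinc-deficient libraries, against between 8347 and 14224 CPM in control libraries, and 10 of 10 had a negative log2 fold change (Col1a1 -0.86 ± 0.31 and Bglap -1.10 ± 0.32, SE), with overlapping sums. Col1a1 made up most of these sums in every library. The mean log2 CPM over these markers was 5.98, 5.84 and 5.75 in zinc-deficient libraries, against 6.98, 6.23 and 6.37 in control libraries. The 10 erythroid markers summed to 4258 CPM in zinc-deficient library 4 and to between 1512 and 1595 CPM in the other zinc-deficient libraries, against between 493 and 1807 CPM in control libraries, and 10 of 10 had a positive log2 fold change (Hba-a2 1.29 ± 0.79 and Hbb-bs 1.32 ± 0.68, SE). Nasal gland markers summed to between 12431 and 15208 CPM in zinc-deficient libraries, against 27767 CPM in control library 6 and between 10247 and 17741 CPM in the other control libraries, with 5 positive and 4 negative fold changes among the tested ones (Obp1a -1.83 ± 2.18 and Bpifa1 0.08 ± 0.25, SE). Neutrophil precursor markers summed to between 623 and 1426 CPM in zinc-deficient libraries, against between 396 and 2405 CPM in control libraries, and 9 of 10 had a positive log2 fold change (Ltf -1.01 ± 0.92 and Ngp 1.82 ± 1.22, SE). Ltf made up most of that sum in every library except zinc-deficient library 5, where it had 281 CPM. The mean log2 CPM over these markers was 4.61, 4.68 and 4.48 in zinc-deficient libraries, against 4.09, 2.62 and 1.49 in control libraries. None of the markers of these 5 lists passed the adjusted test in edgeR. At an unadjusted p under 0.05 in edgeR there were 6 mature neuron, 7 osteoblast, 2 erythroid, 1 gland and 4 neutrophil precursor markers, and DESeq2 called 1, 4, 1, 0 and 1 of these lists. Over all genes tested, 12.9% were under that p in edgeR, and DESeq2 called 1.94%. Developing B cell markers summed to between 209 and 297 CPM in zinc-deficient libraries, against between 150.2 and 244 CPM in control libraries, and 9 of 9 tested had a positive log2 fold change. Among them Igll1, part of the surrogate light chain of early B cells, passed the test, with 3.53, 3.001 and 2.93 CPM in zinc-deficient libraries, against 0.311, 0 and 0.131 CPM in control libraries (adjusted p = 0.0373 in edgeR). In the other marker lists edgeR called 0 genes, with between 0 and 4 per list at an unadjusted p under 0.05, while DESeq2 called 1 immature olfactory neuron marker and 2 ciliated markers. Immature neuron markers had 8 of 8 positive log2 fold changes, with a median of 0.32. Their sums were 1121 to 1380 CPM in zinc-deficient libraries, against 925 to 1118 CPM in control libraries, without overlap. Sustentacular markers had 7 positive and 1 negative, and ciliated and endothelial markers each had 1 positive and 7 negative. No marker of these lists had 0 counts over the 6 libraries together. In such bulk samples, fewer cells of a type and less RNA per cell cannot be told apart, and the part that these cell types have in the values of the Slc39 genes was not tested.

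The promoters of the members were searched for the metal response element, because it is the sequence through which zinc levels are known to reach zinc genes. The letters searched were TGCACNC and TGCGCNC on both strands, in windows of 300 bases, 250 before to 50 after the start, as RefSeq gives them on build GRCm38.p6. Windows were searched for 7 of the 10 members, with 10 windows in all, and 4 of these windows, of 3 members, held a match. None was searched for Slc39a4, Slc39a6 and Slc39a14, so their promoters are not described. Over the 32851 windows of this length that were searched, 25.7% held at least 1 match. The matches of Slc39a3, Slc39a8 and Slc39a11 are shown with flanking bases, 5′ to 3′ along the gene's strand, with the 7 matching bases in capitals. A capital stretch that reads as the reverse complement of the motif lies on the other strand. The match nearest before the start is added for Mt1, whose window held 3 matches, and for Slc30a1, whose window held 2, since both are known Mtf1 targets; each matching window of a member held 1.
Slc39a3, chr10:81037436-81037476, minus strand, 144 to 138 bases before the start: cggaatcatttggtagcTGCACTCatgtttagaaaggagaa
Slc39a8, chr3:135825621-135825656, plus strand, 19 to 13 bases before the start: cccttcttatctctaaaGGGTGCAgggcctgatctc
Slc39a11, chr11:113650093-113650124, minus strand, 15 to 9 bases before the start: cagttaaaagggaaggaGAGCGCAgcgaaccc
Slc39a11, other start, chr11:113565932-113565972, minus strand, 140 to 134 bases before the start: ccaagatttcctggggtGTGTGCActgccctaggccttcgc
Mt1, chr8:94179049-94179088, plus strand, 23 to 17 bases before the start: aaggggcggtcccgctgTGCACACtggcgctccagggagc
Slc30a1, chr1:191906721-191906761, plus strand, 43 to 37 bases before the start: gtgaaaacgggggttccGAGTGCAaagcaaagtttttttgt
The windows of Slc39a1, Slc39a7, Slc39a9 and Slc39a10 held no such letters. Slc39a8 had another window, of another start at chr3:135825029-135825328, which held no match either. A match is a description of the letters and not a bound site.

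Levels were compared between genes per length, as the deposited RPKM (counts scaled by gene length and by the authors' library total). Slc39a7 was the highest member, with a mean of 15.9 RPKM over the 6 libraries, followed by Slc39a1 at 14.1 RPKM and Slc39a3 at 9.76 RPKM. These 3 genes held 26.1%, 23.2% and 16.1% of the summed RPKM of the 10 members. Slc39a7 was above Slc39a1 in 6 of 6 libraries and Slc39a1 above Slc39a3 in 6 of 6, although the ranges of each pair overlapped across libraries. Slc39a3 stood above Slc39a11 without overlap, by 1.95-fold.

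The other members were lower. Slc39a11 averaged 4.997 RPKM and Slc39a9 averaged 4.71 RPKM, and each was the higher of the pair in 3 of the 6 libraries. Slc39a4 averaged 2.98 RPKM and Slc39a6 averaged 2.83 RPKM, with overlapping ranges, and Slc39a4 was the higher in only 2 of the 6 libraries. Slc39a6 stood above Slc39a14 without overlap, by 1.47-fold. The lowest members were Slc39a14 at 1.92 RPKM, Slc39a10 at 1.86 RPKM and Slc39a8 at 1.80 RPKM, and their ranges overlapped. Slc39a7 ranked 1014 and Slc39a8 ranked 9911 among the 41709 listed genes by mean RPKM.

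**Figure D1:**
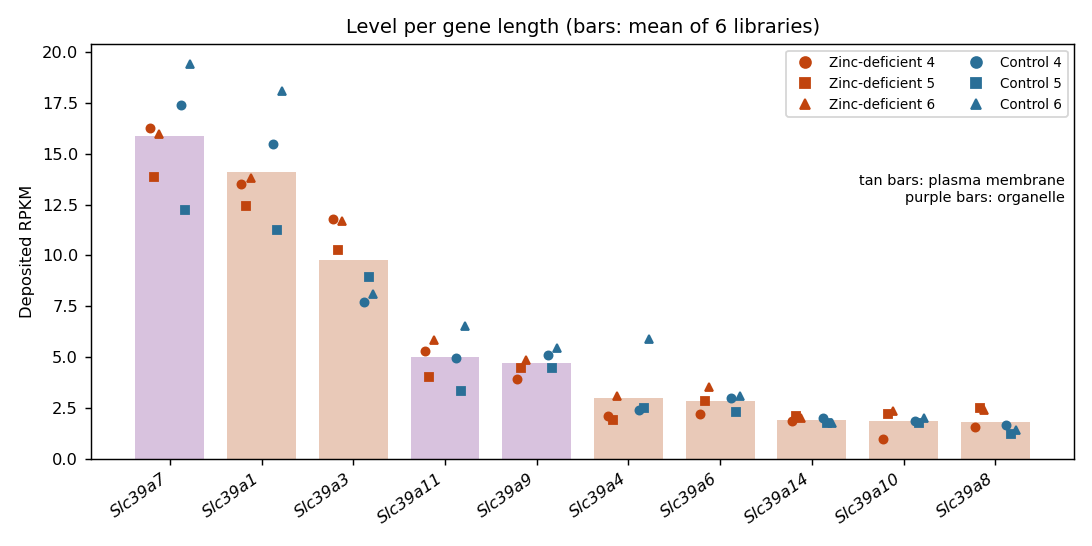
Deposited RPKM of the 10 Slc39 members, ordered by level, with a bar for the mean of 6 libraries and a point for each library (zinc-deficient at the left of each bar, control at the right). Slc39a7, Slc39a1 and Slc39a3 lead at 15.9, 14.1 and 9.76 RPKM, and the lowest members lie near 1.8 to 1.9 RPKM.

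None of the 10 members passed the test of the diet in edgeR's quasi-likelihood fit over 18427 genes at an adjusted p of 0.05, while 22 of all genes tested passed (0.119%), with 0.0868% higher and 0.0326% lower in zinc-deficient libraries. At an unadjusted p under 0.05 there were 3 members, Slc39a3, Slc39a8 and Slc39a9, of 10, where 12.9% of all genes tested were under it. DESeq2, which called 1.94% of its genes, also called 0 members, as did limma-voom and limma on log2 RPKM. The edgeR fit with no low-count filter called 0.615% of genes and 0 members. The CPM ranges of the diets did not overlap for 1 member, Slc39a9, where 18.9% of all genes tested had separate ranges. The log2 fold change, zinc-deficient over control, was positive in 2 members and negative in 8, with a median of -0.13, beside a median of -0.0020 over all genes tested. The differences printed for each member below are from the edgeR fit, with intervals that are not adjusted for the number of genes.

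Slc39a1 and Slc39a3 encode plasma membrane zinc importers found in many cell types. Slc39a1 (ENSMUSG00000052310) lies on chromosome 3 at 90155479 to 90160919 on the plus strand, in deposited coordinates of a build not given in the sources used here. Its GRCm38.p6 promoter window, at 90247942 to 90248241, lay past that deposited end. Deposited positions and promoter positions are therefore not to be compared. Slc39a1 had 67.0, 55.6 and 60.2 CPM in zinc-deficient libraries 4, 5 and 6, against 74.5, 58.2 and 88.8 CPM in control libraries 4, 5 and 6. The ranges overlapped because control library 5 lay below zinc-deficient libraries 4 and 6. The log2 fold change was -0.28 ± 0.16 (SE, n = 3 each), with a 95% interval from -0.63 to 0.07 and an adjusted p of 0.491 in edgeR. With a library left out it lay between -0.42 (without control library 5) and -0.12 (without control library 6).

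Slc39a3 (ENSMUSG00000046822) lies on chromosome 10 at 80864372 to 80873260 on the minus strand. It had 99.6, 77.9 and 86.7 CPM in zinc-deficient libraries, against 63.2, 78.6 and 67.7 CPM in control libraries. Zinc-deficient library 5 lay just under control library 5, and the other zinc-deficient libraries stood above every control library. Between the diets, the log2 fold change was 0.33 ± 0.14 (SE, n = 3 each), with a 95% interval from 0.03 to 0.64. The unadjusted p was 0.0332 and the adjusted p was 0.345 in edgeR. In deposited RPKM, which uses another library total, the values were 11.8, 10.3 and 11.7 in zinc-deficient libraries, against 7.73, 8.94 and 8.11 in control libraries, and those ranges did not overlap. The share of all genes with separate RPKM ranges was not counted. In the fits on log2(RPKM + 1) and log2(RPKM + 0.1) the median of all genes was itself 0.09 and 0.12. Summed mature and summed immature olfactory neuron markers, given above in CPM, each had separate ranges with zinc-deficient libraries above, whereas Slc39a3 overlapped in CPM. The part of these markers in the Slc39a3 values was not tested.

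Slc39a4 encodes the importer of the intestinal brush border, and its human counterpart is mutated in the zinc deficiency disease acrodermatitis enteropathica. It (ENSMUSG00000063354) lies on chromosome 15 at 76496583 to 76501584 on the minus strand. It had 13.7, 11.3 and 17.8 CPM in zinc-deficient libraries, against 15.2, 16.8 and 38.0 CPM in control libraries. Control library 6 stood far above the other 5 libraries, and zinc-deficient library 6 lay above control libraries 4 and 5. The fitted log2 fold change was -0.71 ± 0.35 (SE, n = 3 each), with a 95% interval from -1.49 to 0.07 and an adjusted p of 0.430 in edgeR. Without control library 6 it was -0.16, so that library set most of the value. The same library had the highest summed nasal gland markers in CPM. Their mean log2 CPM was instead highest in control library 4, at 8.76, against 8.62 in control library 6. The part of the nasal gland markers in the value was not tested.

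Slc39a6 and Slc39a10 encode a related pair of importers whose proteins are known to form a complex with each other. Slc39a6 (ENSMUSG00000024270) lies on chromosome 18 at 24712938 to 24736874 on the minus strand. It had 18.7, 21.7 and 26.6 CPM in zinc-deficient libraries, against 24.9, 20.6 and 26.2 CPM in control libraries, and the ranges overlapped. This gave a log2 fold change of -0.10 ± 0.18 (SE, n = 3 each), with a 95% interval from -0.49 to 0.29 and an adjusted p of 0.855 in edgeR. With a library left out it lay between -0.24 (without zinc-deficient library 6) and 0.02 (without zinc-deficient library 4), with -0.19 without control library 5, -0.06 without control library 4 and -0.02 without control library 6.

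Slc39a10 (ENSMUSG00000025986) lies on chromosome 1 at 46846704 to 46932012 on the minus strand. It had 12.7, 25.2 and 26.7 CPM in zinc-deficient libraries, against 23.0, 23.6 and 25.3 CPM in control libraries. Zinc-deficient library 4 was the lowest of the 6, and the other zinc-deficient libraries lay at or above the middle of the control range. The diets differed by a log2 fold change of -0.15 ± 0.24 (SE, n = 3 each), with a 95% interval from -0.68 to 0.38 and an adjusted p of 0.830 in edgeR. Without zinc-deficient library 4 the sign turned, to 0.12, and the value was -0.34 without zinc-deficient library 6 and -0.28 without zinc-deficient library 5. Zinc-deficient library 4 also had the highest summed erythroid markers, and their part in the Slc39a10 value was not tested.

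Slc39a8 and Slc39a14 encode importers that carry manganese and iron beside zinc, and both are known to respond to inflammatory signals. Slc39a8 (ENSMUSG00000053897) lies on chromosome 3 at 135531040 to 135594333 on the plus strand. It had 25.5, 36.1 and 33.9 CPM in zinc-deficient libraries, against 25.9, 20.8 and 22.3 CPM in control libraries. Zinc-deficient library 4 lay just under control library 4, and the other zinc-deficient libraries stood above every control library. Its log2 fold change came to 0.47 ± 0.17 (SE, n = 3 each), with a 95% interval from 0.09 to 0.85. This was the highest of the 10 members, with an unadjusted p of 0.0193 and an adjusted p of 0.305 in edgeR.

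Slc39a14 (ENSMUSG00000022094) lies on chromosome 14 at 70540918 to 70588874 on the minus strand. It had 41.1, 42.0 and 39.0 CPM in zinc-deficient libraries, against 43.1, 41.2 and 38.9 CPM in control libraries. These libraries varied little, with a coefficient of variation of 3.84% in zinc-deficient and 5.16% in control libraries, and the ranges overlapped almost wholly. The log2 fold change was -0.01 ± 0.13 (SE, n = 3 each), and its 95% interval ran from -0.30 to 0.27. The adjusted p was 0.980 in edgeR, and with a library left out the value stayed between -0.04 and 0.03. This interval bounds the change of Slc39a14 at a fold between 0.813 and 1.21.

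**Figure D2:**
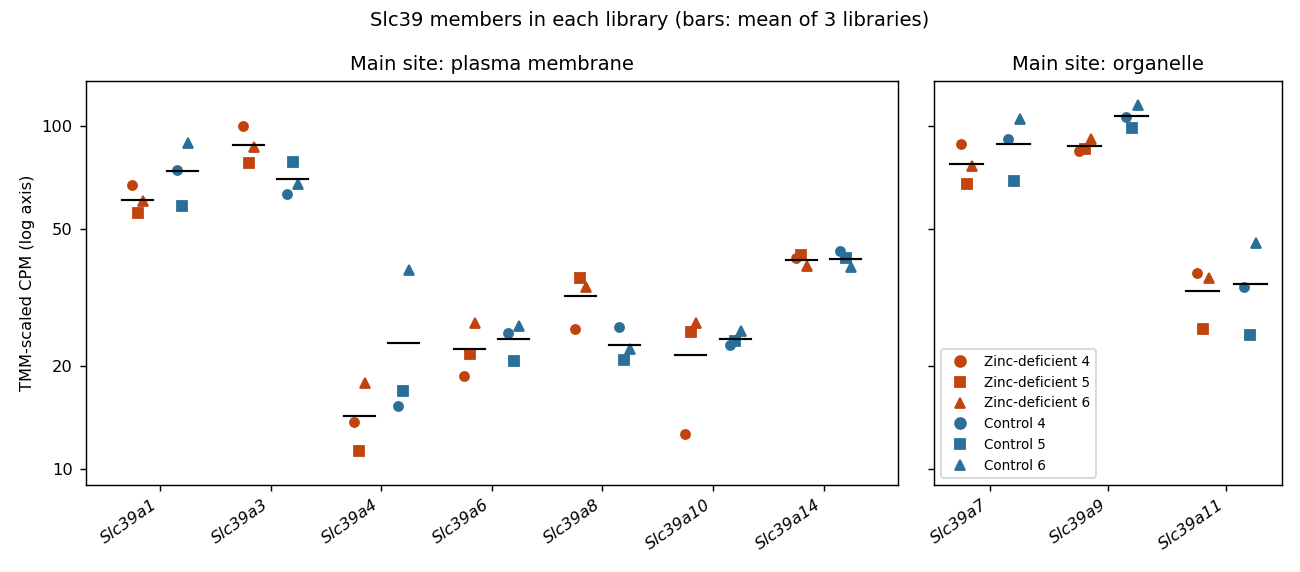
TMM-scaled CPM of each member in each library on a log axis, with zinc-deficient libraries left of control libraries and a bar for the mean of 3 libraries. Slc39a9 has separate ranges, control library 6 stands apart for Slc39a4 at 38.0 CPM, and zinc-deficient library 4 stands apart for Slc39a10 at 12.7 CPM.

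Among the organelle members, Slc39a7 encodes the transporter that releases zinc from the endoplasmic reticulum and Golgi into the cytosol. It (ENSMUSG00000024327) lies on chromosome 17 at 34247243 to 34250656 on the minus strand. It had 88.3, 67.5 and 76.2 CPM in zinc-deficient libraries, against 91.5, 69.2 and 104 CPM in control libraries. The ranges overlapped, and library 5 was the lowest in each diet. Between the diets, the log2 fold change was -0.19 ± 0.16 (SE, n = 3 each), with a 95% interval from -0.55 to 0.16 and an adjusted p of 0.656 in edgeR. With a library left out it lay between -0.34 (without control library 5) and -0.05 (without control library 6), with -0.29 without zinc-deficient library 4 and -0.10 without zinc-deficient library 5.

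Slc39a9 encodes a transporter located mainly in the Golgi. It (ENSMUSG00000048833) lies on chromosome 12 at 80690657 to 80730116 on the plus strand. It had 84.2, 85.5 and 91.4 CPM in zinc-deficient libraries, against 105.8, 98.7 and 114.8 CPM in control libraries. Every zinc-deficient library lay below every control library, as in 9.31% of all genes tested. The means were 87.0 ± 3.86 CPM in zinc-deficient libraries and 106.4 ± 8.09 CPM in control libraries (SD, n = 3 each). The fitted log2 fold change was -0.29 ± 0.12 (SE), with a 95% interval from -0.55 to -0.03. The unadjusted p was 0.0308 and the adjusted p was 0.340 in edgeR. In deposited RPKM the ranges overlapped, with 3.95, 4.46 and 4.88 in zinc-deficient libraries, against 5.11, 4.44 and 5.44 in control libraries.

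Slc39a11 encodes a Golgi transporter of the gufA branch of the family, named after a bacterial gene. It (ENSMUSG00000041654) lies on chromosome 11 at 113135679 to 113540905 on the minus strand. It had 37.3, 25.6 and 36.1 CPM in zinc-deficient libraries, against 33.9, 24.6 and 45.7 CPM in control libraries, and the ranges overlapped, with library 5 the lowest in each diet. This gave a log2 fold change of -0.08 ± 0.22 (SE, n = 3 each), with a 95% interval from -0.57 to 0.42 and an adjusted p of 0.923 in edgeR. The sign turned without control library 6, to 0.18, and without zinc-deficient library 5, to 0.08. The value was -0.27 without control library 5, -0.17 without zinc-deficient library 4 and -0.15 without zinc-deficient library 6.

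The counting strand is not stated, so reads of a member and of a gene overlapping it could not be told apart. In the deposited coordinates Slc39a6 overlapped Elp2, Slc39a9 overlapped Erh and Slc39a11 overlapped Cog1, each on the opposite strand. Over the 6 libraries Elp2 had 4525 counts beside 2120 of Slc39a6, Erh had 1415 beside 8737 of Slc39a9, and Cog1 had 4834 beside 3086 of Slc39a11. Slc39a7 overlapped Gm20427 on the same strand, with 1825 counts beside 7473, and Slc39a10 overlapped Gm28151, with 383 counts beside 2098. Adding the counts of same-strand partners gave log2 fold changes of -0.24 for Slc39a7 and -0.19 for Slc39a10, and 0 members were then called.

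The 7 plasma membrane members had a median log2 fold change of -0.10, with 2 positive and 5 negative, and that median was 0.02 without zinc-deficient library 4. In the fits on log2(RPKM + 1) and log2(RPKM + 0.1) it was 0.0074 and 0.0062, where the median of all genes was 0.09 and 0.12, so it lay below the median of all genes there too. The 3 organelle members were all negative, with a median of -0.19, and this was so in each of the scalings of counts, whereas Slc39a11 was positive in the fits on log2 RPKM, though below the median of all genes in them, and without control library 6 or zinc-deficient library 5. Summed RPKM of plasma membrane members was 34.0, 34.3 and 38.9 in zinc-deficient libraries, against 34.1, 29.8 and 40.3 in control libraries. Summed RPKM of organelle members was 25.5, 22.3 and 26.7 in zinc-deficient libraries, against 27.4, 20.03 and 31.4 in control libraries. Both sums overlapped between the diets. Plasma membrane members held 59.0% ± 1.71 of the summed RPKM in zinc-deficient libraries and 57.1% ± 2.32 in control libraries (SD, n = 3 each). The ranges overlapped, at 57.2% to 60.5% in zinc-deficient libraries and 55.4% to 59.8% in control libraries.

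**Figure D3:**
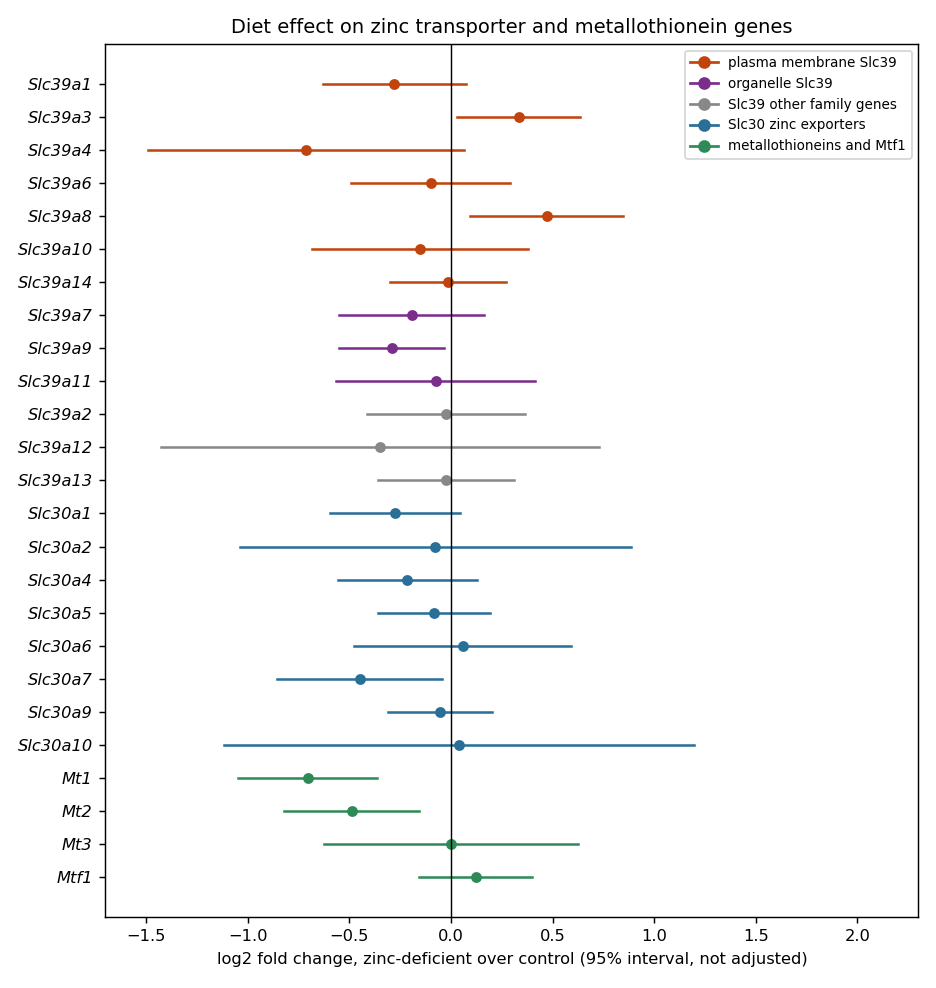
Log2 fold change (zinc-deficient over control) of the members, the other Slc39 genes, the Slc30 genes, the metallothioneins and Mtf1, as points with 95% intervals that are not adjusted. Among the members the intervals of Slc39a3, Slc39a8 and Slc39a9 leave out 0, and none passed the adjusted test.

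In the authors' deposited table, 393 of 19311 genes had an FDR-adjusted p at or under 0.05 (2.04%), and 0 of the 10 members did. In the authors' deposited table Slc39a4 had an unadjusted p of 0.0193, Slc39a8 of 0.0223 and Slc39a3 of 0.0436. The authors' deposited table gave them FDR-adjusted p-values of 0.280, 0.296 and 0.394, for log2 fold changes of -0.71, 0.48 and 0.34. For Slc39a9 the authors' deposited table gave an unadjusted p of 0.0774.

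**Figure D4:**
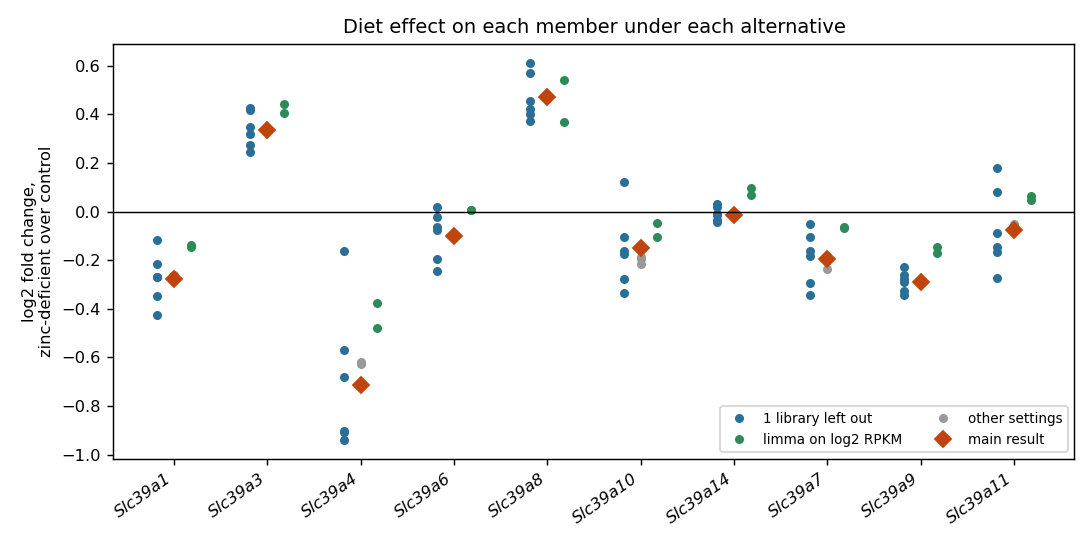
Log2 fold change of each member, zinc-deficient over control, in the reported edgeR fit (diamonds), with 1 library left out, in limma on log2 RPKM and under the other settings. Slc39a3 and Slc39a8 are above 0 and Slc39a1, Slc39a4, Slc39a7 and Slc39a9 below 0 at every point, while Slc39a6, Slc39a10, Slc39a11 and Slc39a14 cross 0.

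Likeness between genes was measured as the root mean square difference of their log2 CPM over the 6 libraries, each gene centred on its own mean. For Slc39a1, the highest plasma membrane member per length, the 3 nearest of 15176 genes compared were Sardh at 0.0409, Dchs1 at 0.0501 and Ftl1 at 0.0505, beside a median of 0.318 over the genes compared. For Slc39a7, the highest organelle member per length, they were Bcat2 at 0.0397, Tmem51 at 0.0418 and Sardh at 0.0468, beside a median of 0.314. Slc39a1 and Slc39a7, of different classes, were the most alike of the 45 pairs of members, at 0.0552. The complex partners Slc39a6 and Slc39a10 differed by 0.250. Slc39a6 was the nearest member to Slc39a10, ahead of Slc39a9 at 0.317, while Slc39a6 itself was nearest to Slc39a9, at 0.151. Slc39a4 and Slc39a8 were the least alike pair at 0.727.

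The same measure, applied to the other members after the data were seen, placed Krt19, a keratin of simple and glandular epithelia, nearest to Slc39a4 at 0.107. The median over the genes compared was 0.577. Krt19 had 26.7, 21.2 and 36.6 CPM in zinc-deficient libraries, against 35.6, 36.0 and 72.8 CPM in control libraries. Control library 6 was the highest for both genes, which follows from choosing Krt19 by its likeness to Slc39a4 over these same libraries. These values share libraries and their scaling, and they describe 6 libraries only.

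**Figure D5:**
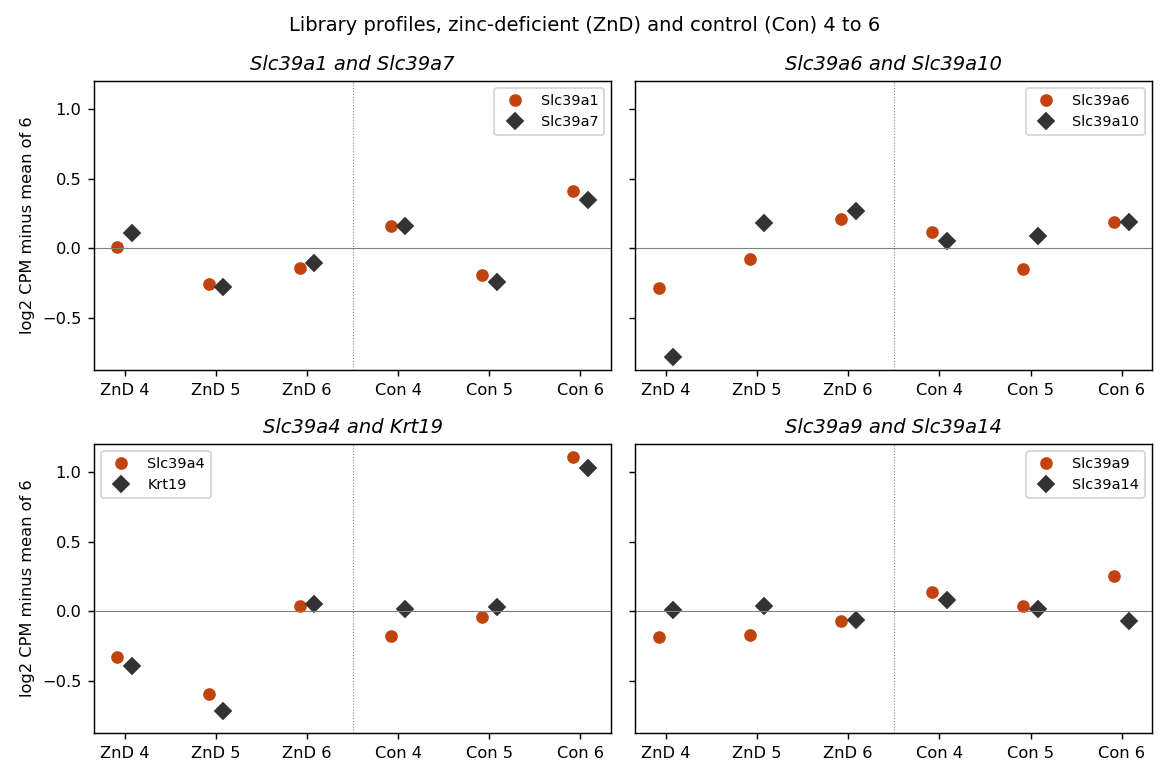
Log2 CPM of 8 gene profiles in 4 panels, each gene minus its mean over the 6 libraries, with zinc-deficient libraries left of control libraries. Slc39a1 and Slc39a7 lie close together in each library, Slc39a10 departs from Slc39a6 in zinc-deficient library 4, and Slc39a4 and Krt19 are both highest in control library 6. Krt19 was chosen as the gene nearest to Slc39a4 over these same libraries.

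Of the other Slc39 genes, 3 of 4 were tested and 0 passed in edgeR, DESeq2 or limma-voom, with 0 at an unadjusted p under 0.05. Slc39a2, a plasma membrane importer of skin keratinocytes, had a log2 fold change of -0.02 ± 0.18 (SE, adjusted p = 0.969 in edgeR). Slc39a13, a transporter of the secretory pathway known for connective tissue defects when mutated, had -0.02 ± 0.15 (SE, adjusted p = 0.965 in edgeR). Slc39a12, known mainly from brain, was near the low end with between 12 and 18 counts per library and a log2 fold change of -0.35 ± 0.49 (SE, adjusted p = 0.805 in edgeR). Its CPM ranges did not overlap, at 0.808 to 0.883 CPM in zinc-deficient libraries, against 0.953 to 1.18 CPM in control libraries. Separate ranges with zinc-deficient libraries lower were seen in 9.31% of all genes tested. Slc39a5 had 8, 2 and 2 counts in zinc-deficient libraries, against 1, 0 and 4 counts in control libraries, and was not tested.

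Of the 10 Slc30 genes, 8 passed the low-count filter and 0 passed the test in edgeR, DESeq2 or limma-voom, with 1 at an unadjusted p under 0.05, 2 positive and 6 negative fold changes and a median log2 fold change of -0.08. Over all genes tested, 12.9% were under that p in edgeR. Slc30a1, the plasma membrane exporter, had 29.3, 28.2 and 24.1 CPM in zinc-deficient libraries, against 33.9, 33.5 and 31.2 CPM in control libraries. Its ranges did not overlap, with zinc-deficient libraries lower, as in 9.31% of all genes tested. Its log2 fold change was -0.28 ± 0.15 (SE, adjusted p = 0.454 in edgeR). Slc30a7, which loads zinc into the Golgi, had 25.9, 39.8 and 34.5 CPM in zinc-deficient libraries, against 50.9, 37.2 and 48.9 CPM in control libraries. Its ranges overlapped, and its log2 fold change was -0.45 ± 0.19 (SE, unadjusted p = 0.0327, adjusted p = 0.345 in edgeR). Without zinc-deficient library 4 it was -0.29, and on log2(RPKM + 1) it was -0.21. The log2 fold changes of the other tested exporters, Slc30a2, Slc30a4, Slc30a5, Slc30a6, Slc30a9 and Slc30a10, lay between -0.21 and 0.06. Slc30a3 had at most 2 counts and Slc30a8 at most 1 count in a library, and neither was tested.

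Of the 4 metallothioneins and Mtf1, 4 genes were tested and 0 passed in edgeR, with 2 at an unadjusted p under 0.05, while DESeq2 called 1 and limma-voom 0. The shares over all genes were 12.9% under that p in edgeR and 1.94% called in DESeq2. Mt1, the main inducible metallothionein with Mt2, had 101, 80.8 and 75.8 CPM in zinc-deficient libraries, against 139, 117 and 164 CPM in control libraries, with no overlap. Its log2 fold change was -0.71 ± 0.16 (SE, adjusted p = 0.134 in edgeR), and its adjusted p was 0.00672 in DESeq2 and between 0.00672 and 0.350 over 16 alternatives. In the authors' deposited table Mt1 had an FDR-adjusted p of 0.00891. Mt2 had 39.3, 38.8 and 37.9 CPM in zinc-deficient libraries, against 53.0, 45.0 and 64.5 CPM in control libraries, with no overlap. Its log2 fold change was -0.49 ± 0.15 (SE, adjusted p = 0.242 in edgeR). Of all genes tested, 9.31% had separate ranges with zinc-deficient libraries lower, as Mt1 and Mt2 did. Mtf1 had a log2 fold change of 0.12 ± 0.13 (SE, adjusted p = 0.725 in edgeR), and Mt3, known mainly from brain, had 0.00057 ± 0.29 (SE, adjusted p = 0.9995 in edgeR). Mt4, known from stratified epithelia, had 0 counts in each library, which allows up to between 0.160 and 0.256 CPM.

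Of 14 genes of iron and manganese transport, 13 were tested and 0 passed in edgeR, DESeq2 or limma-voom, with 3 at an unadjusted p under 0.05. There were 4 positive and 9 negative fold changes, with a median log2 fold change of -0.07. The ferritin chains were the most abundant, with log2 fold changes of -0.27 ± 0.16 for Ftl1 (SE, adjusted p = 0.509) and 0.03 ± 0.17 for Fth1 (SE, adjusted p = 0.966) in edgeR. Of 14 inflammatory genes tied to Slc39a8 and Slc39a14, 12 were tested and 0 passed in edgeR, DESeq2 or limma-voom, with 3 at an unadjusted p under 0.05. There were 1 positive and 11 negative fold changes, with a median log2 fold change of -0.20. Beside the 3 genes of each list at an unadjusted p under 0.05 in edgeR, 12.9% of all genes tested were under it. Nfkbia, an inhibitor of NF-κB, had a log2 fold change of -0.0020 ± 0.16 (SE, adjusted p = 0.998), and Il6st, the signalling chain of the interleukin-6 receptor, had -0.21 ± 0.14 (SE, adjusted p = 0.541) in edgeR.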

How the data were processed

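The authors deposited whole-number counts per gene and RPKM for 6 libraries, per the file headers, with their own log2 fold changes and p-values for the diets. Aligner, counter, build and annotation were not given in the sources used here, and 12 further deposited per-library columns were not used. Tests of the counts used edgeR 4.0.16 under R 4.3.3 (quasi-likelihood, robust, TMM scaling, filterByExpr, diet as the only term), two-sided, with Benjamini-Hochberg adjustment at 0.05 over all genes tested, and checked on simulated data. CPM were computed with TMM-scaled library sizes; the members' summed CPM and the floor of 3 counts use the column total. A gene's SE is its absolute log2 fold change divided by the square root of its F statistic. Deposited RPKM served for levels between genes. Libraries of the same diet differed by more than sampling noise, so each was counted.

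Alternatives were the replicate number as a block, each library left out, upper-quartile and median-of-ratios scaling, no filter or 100 counts, DESeq2 1.42.0, limma-voom and limma 3.58.1 on log2(RPKM + 1) or log2(RPKM + 0.1). Adding same-strand overlapping genes was chosen after seeing the data. All 10 members, the other Slc39 genes, the Slc30 genes, the metallothioneins and Mtf1 were named whatever their test, and from the other lists described the passing genes or else the 2 highest by RPKM; marker lists given only by their counts have no gene named. Members and lists were chosen with earlier results of these data known. Elp2, Erh, Cog1, Gm20427, Gm28151 and Krt19 were named after their values were seen.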

Additional observations from a re-analysis of the deposited data

How the results depend on the processing

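With 3 libraries per diet, the 0 calls among the 10 members held under all 16 alternatives, with adjusted p between 0.162 and 0.991, and 6 members kept their sign throughout. The count of all genes called, 22, was 153 with the replicate number as a block, 172 with no low-count filter, 342 in DESeq2, 6 in limma-voom, 14 on log2(RPKM + 1) and 10 on log2(RPKM + 0.1), and between 9 (without control library 5, control library 6 or zinc-deficient library 5) and 50 (without control library 4) with a library left out; the cause was not tested. Deviations of same-numbered libraries correlated at -0.05, 0.15 and 0.07, and not every library correlated best with its own number, so the numbers were not taken to pair the libraries, and the block called 0 members, 7 of 10 erythroid markers and 2 of 10 osteoblast markers, with 1 each of the ciliated, neutrophil precursor and developing B cell markers. The median of the organelle members, -0.19, lay between -0.34 (without control library 5) and -0.052 (without control library 6) with a library left out, and was -0.064 on log2(RPKM + 1) and -0.067 on log2(RPKM + 0.1); the RPKM fits moved the median of all genes to 0.09 and 0.12. The sign turned for Slc39a14 (between -0.045 and 0.031 with a library left out, positive without control library 4 and without zinc-deficient library 6, 0.067 on log2(RPKM + 1), 0.097 on log2(RPKM + 0.1)), Slc39a11 (between -0.27 and 0.18 with a library left out, positive without control library 6 and without zinc-deficient library 5, 0.050 and 0.064 on RPKM), Slc39a6 (between -0.24 and 0.019 with a library left out, positive without zinc-deficient library 4, 0.0074 and 0.0062 on RPKM) and Slc39a10 (between -0.34 and 0.12, positive without zinc-deficient library 4). The metallothioneins and Mtf1 had 1 call, Mt1 at -0.70, with no low-count filter and in DESeq2. Slc39a5, Slc30a3, Slc30a8 and Mt4 had too few counts to be tested at this depth.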
